A study of Mus musculus with 12 samples.

Results

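The comparison described here is that of lung tissue from female B6C3F1/Nctr mice labelled as treated with 0.7 mM acrylamide against lung tissue from control mice at 0 mM. Its members are the 6 arrays whose titles name lung, of 12 in the series, with 3 acrylamide arrays (numbered 28, 29 and 30 in their titles) and 3 control arrays (numbered 4, 5 and 6). The other 6 arrays are liver of the same design. B6C3F1 is a hybrid mouse widely used in toxicity testing, and the labels name no transgene or deletion in any group. The series describes its controls as age-matched, but neither the age, the route and length of exposure nor the hour at which tissue was taken is given in the sources used here. Nothing says how far the 3 arrays of a group are separate animals, so every error below measures the spread between these arrays, which may in part be technical.

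The labels of the lung arrays conflict: titles and source names say lung, while the tissue field, the extraction protocol and the design text say liver. Marker genes sided with the titles. The mean log2 level of 17 alveolar type 2 cell genes lay between 4.59 and 4.85 on the 6 lung arrays and between -3.07 and -1.55 on the 6 liver arrays. The mean of 24 hepatocyte genes lay between -2.38 and -1.23 in lung and between 7.76 and 8.09 in liver. All 6 arrays were therefore taken as lung. A level here is the log2 Cy3 intensity of a gene's spot relative to the 75th percentile of the spots on its own array, so 0 is a bright spot by the standard of that array. A difference is the acrylamide mean minus the control mean on that log2 scale with its standard error (SE), n = 3 against 3 throughout. Levels of different genes come from different probes and are not compared with each other.

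Acrylamide is a small reactive amide used to make polymers and formed when starchy food is heated. It is oxidised by the cytochrome P450 CYP2E1 to the epoxide glycidamide, which binds DNA, and both compounds are removed mainly by conjugation with glutathione. Lung is one of the organs in which acrylamide causes tumours in mice. Like other organs, lung runs a circadian clock: CLOCK or NPAS2 pairs with BMAL1 (encoded by Arntl) at E-box sequences and switches on the Per, Cry and Nr1d genes, whose proteins then shut the loop. REV-ERBs (Nr1d1, Nr1d2) repress Arntl through response elements of their own. Genes repressed by REV-ERBs and genes driven by BMAL1 therefore peak at nearly opposite hours.

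The 75th percentile intensity of the lung arrays ran from 839 to 1376, and correlations between pairs of lung arrays over the measured genes ran from 0.982 to 0.994. Of 22252 genes tested in lung, none passed the 5% false discovery rate of limma (0%), and the smallest adjusted p was 0.652. At an unadjusted p under 0.05 there were 1102 genes (4.95%), 405 of them higher with acrylamide (1.82%) and 697 lower (3.13%). Of these, 356 (1.6%) also differed at least 1.5-fold, 145 higher and 211 lower, and 200 of the 356 lay within 4-fold of the background limit. With median centring in place of the 75th percentile the share of higher genes among the 1.5-fold ones was 32.2% in place of 40.7%. It was 52.5% with slide row in the model and 51.6% in 1 fit of all 12 arrays. Slide and slide row, here and below, are a reading of the numbers that open the array titles. All 3 acrylamide arrays lay above all 3 controls for 908 genes (4.08%) and below them for 1525 (6.85%). Of all tested genes, 48.3% were higher with acrylamide, whatever the p. These shares are the background for every count of list members below. No gene named below passed the adjusted threshold, so the text gives values and says where the groups overlapped. Within the first principal component (38.7% of the variance) acrylamide 29 and control 4 stood at one end and control 6 at the other, and array weights from limma were lowest for control 4 (0.40) and control 6 (0.59).

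Clock genes differed in both directions. The activating genes Arntl and Npas2 were lower on every acrylamide array than on every control, and the REV-ERB genes Nr1d1 and Nr1d2, Per2 and the output factor Dbp were higher on every acrylamide array. Cry1 and Nfil3, repressor genes that peak later than the Per genes, lay on the lower side. Of 6 measured activator genes, 3 had all acrylamide arrays below the controls and none above. Of 14 repressor genes, 4 lay above and 2 below, and of 14 output genes 2 lay above and 2 below.

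To show what letters these genes carry in front of their starts, RefSeq promoters (GRCm38.p6, from 250 bases before to 50 bases after the start) were searched on both strands for the E-box CACGTG, to which CLOCK and BMAL1 bind, and for AGGTCA, the core of the REV-ERB response element. CACGTG was present in 7.15% of all 32851 promoters and AGGTCA in 16.3%. Of 24 clock genes, 19 had an entry. Among them CACGTG stood in Cry1, Per1, Bhlhe41, both promoters of Tef and, with 3 matches, Ciart, and AGGTCA in Nr1d2, Nfil3, Per1 and 1 promoter each of Arntl and Clock, in Arntl after the start. The windows below are printed 5′ to 3′ on the gene's own strand with the motif in capitals.
Cry1 (chr10:85185092-85185131, minus strand, 60 bases before the start): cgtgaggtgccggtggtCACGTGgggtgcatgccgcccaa
Per1 (chr11:69098766-69098805, plus strand, 166 bases before): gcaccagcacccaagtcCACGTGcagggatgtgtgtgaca
Bhlhe41 (chr6:145865551-145865590, minus strand, 153 bases before): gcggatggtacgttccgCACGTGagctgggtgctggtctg
Tef (chr15:81802529-81802568, plus strand, 127 bases before): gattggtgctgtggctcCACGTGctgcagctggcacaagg
Ciart (chr3:95882322-95882361, minus strand, 116 bases before): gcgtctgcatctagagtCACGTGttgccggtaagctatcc
Nr1d2, with the AGGTCA core (chr14:18239161-18239200, minus strand, 77 bases before): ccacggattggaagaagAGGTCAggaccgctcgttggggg
The genes that carry the E-box letters did not share a direction in lung: Cry1 was lower on all acrylamide arrays, Bhlhe41 higher on all, and Per1, Tef and Ciart overlapped. A match is a description of these letters only.

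Arntl measured 0.04, 0.27 and 0.38 on controls 4, 5 and 6 and -0.48, -0.79 and -0.78 on acrylamide 28, 29 and 30. The groups were apart, with a difference of -0.92 ± 0.14 (SE; limma adjusted p = 0.920), and all 3 spots of the gene gave a negative difference, from -1.08 to -0.83. Npas2, whose protein can stand in for CLOCK, measured -5.29, -5.13 and -5.30 on the controls and -5.96, -5.82 and -6.45 with acrylamide, a difference of -0.84 ± 0.18. This gene was dim, with 1 spot tested and a mean 2.96 log2 units above the background limit. Clock itself lay between 2.16 and 2.31 on all 6 arrays, with a difference of -0.03 ± 0.09. Arntl and Npas2 were thus apart between the groups, and Clock overlapped.

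On the repressor side Nr1d1 measured -1.56, -2.19 and -2.38 on the controls and -0.80, -0.84 and -0.87 with acrylamide, a difference of 1.21 ± 0.22 (adjusted p = 0.955 by limma). The 3 acrylamide arrays lay close together while the controls spread, control 4 being the highest. Nr1d2 measured 1.65, 0.80 and 0.76 on the controls and 1.91, 2.09 and 2.16 with acrylamide, a difference of 0.99 ± 0.26, and its 3 spots gave 0.89 to 0.99. Per2 measured 2.0, 1.39 and 0.86 on the controls and 2.34, 2.11 and 2.58 with acrylamide, a difference of 0.92 ± 0.30. Here too control 4 stood nearest to the acrylamide arrays. Per1 measured 4.69, 2.67 and 3.39 on the controls and 4.46, 3.85 and 4.24 with acrylamide, so that control 4 exceeded every acrylamide array and the difference was 0.60 ± 0.51. Per3 was similar, with -1.45 on control 4, -2.63 and -2.47 on controls 5 and 6 and -1.76 to -1.41 with acrylamide (0.57 ± 0.33). Without control 4 the differences became 1.15 for Per1, 0.94 for Per3, 1.45 for Nr1d1, 1.27 for Nr1d2 and 1.21 for Per2. Within slide row 2, where acrylamide 29 met controls 4 and 6, Per1 was -0.19.

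Cry1, a repressor of CLOCK and BMAL1, measured -3.38, -2.97 and -3.14 on the controls and -4.07, -4.15 and -3.86 with acrylamide, a difference of -0.86 ± 0.15 without overlap. Its second spot gave -0.535 and overlapped, with acrylamide 29 above every control. Cry2 differed by 0.14 ± 0.14 and overlapped. Nfil3, which competes with DBP at D-box sequences, measured 1.06, 1.25 and 1.37 on the controls and 0.71, 0.91 and 0.82 with acrylamide, a difference of -0.41 ± 0.12. Bhlhe41, encoding the repressor DEC2, was higher on all acrylamide arrays by 0.29 ± 0.11, while Bhlhe40 (0.23 ± 0.20) and Ciart (0.11 ± 0.31) overlapped. The 2 cryptochromes thus had differences of opposite sign, while the 2 DEC genes had differences of the same sign and similar size. The differences between the paralogs were not tested.

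Dbp, the D-box activator that is a direct output of the clock, measured 2.10, 0.61 and 0.60 on the controls and 2.47, 2.63 and 2.90 with acrylamide. The groups did not overlap, but control 4 stood much nearer to the acrylamide arrays than the other controls. The difference was 1.56 ± 0.43 and without control 4 it was 2.06. Its relatives Tef (0.30 ± 0.13) and Hlf (-0.27 ± 0.25) overlapped. Among the remaining output genes, Tspan4, a tetraspanin gene, was higher on all acrylamide arrays (0.44 ± 0.10). Avpr1a, the vasopressin receptor gene, was lower (-0.99 ± 0.25), as was Leo1, a subunit gene of the PAF1 complex (-0.39 ± 0.09). Within slide row 1 (acrylamide 28 and 30 against control 5) the differences were -0.90 for Arntl, -1.0 for Cry1, 1.36 for Nr1d1 and 2.07 for Dbp, and within row 2 they were -1.0, -0.89, 1.13 and 1.28 in the same order. The hour of tissue collection cannot be told apart from treatment for these genes with the labels at hand.

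**Figure D1:**
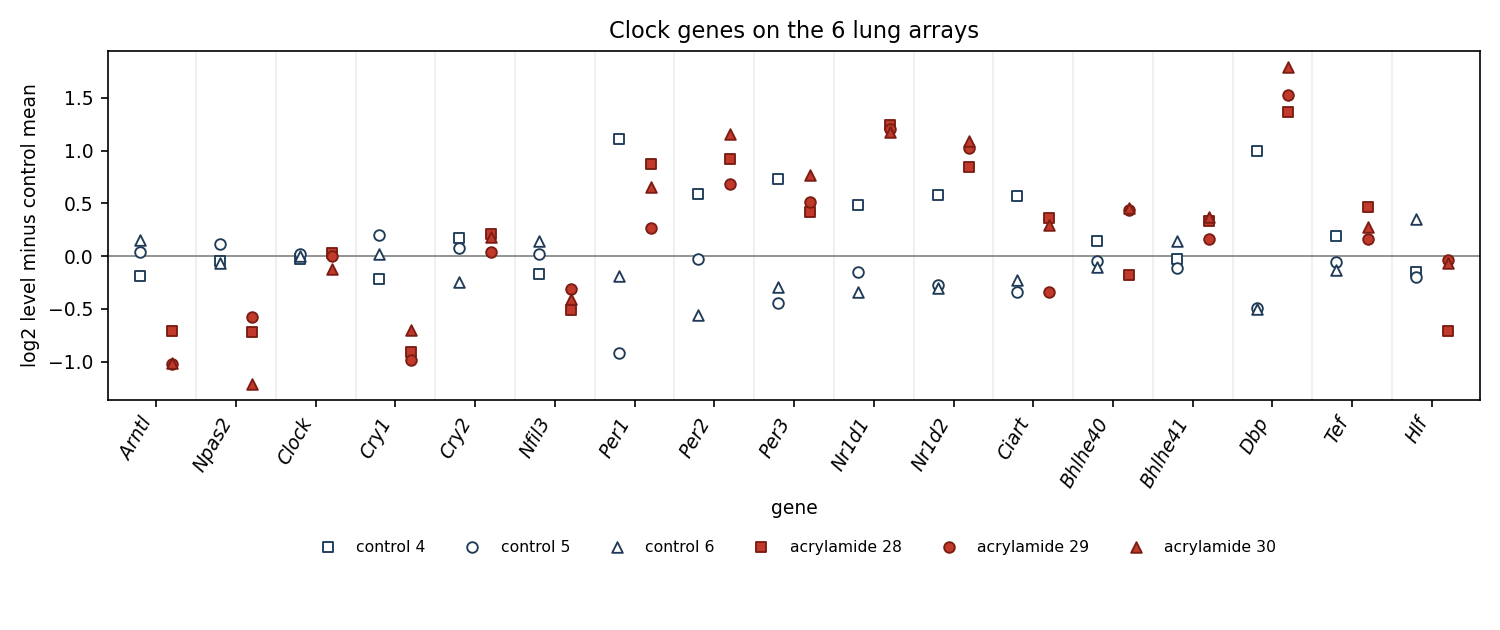
Log2 level minus the control mean (y axis) of 17 clock genes (x axis) on each lung array, with open symbols for the controls and filled symbols for acrylamide. Arntl, Npas2, Cry1 and Nfil3 have all filled symbols below the open ones, Per2, Nr1d1, Nr1d2, Bhlhe41 and Dbp have them above, and control 4 (open square) lies among the acrylamide arrays for Per3 and above them for Per1.

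Immediate early genes, which are transcribed within minutes of a stimulus and encode mostly transcription factors, split into a lower and a higher group. Of 36 measured, 8 had all acrylamide arrays below all controls and 5 had them above, against 6.85% and 4.08% of all genes. At an unadjusted p under 0.05 there were 7 lower and 4 higher genes. The median difference of the list was -0.08, beside -0.01 over all tested genes, so the list did not move as a whole. The lower group held Egr1, Egr3, Fosb, Nr4a1, Ccn1, Fos, Ier3 and Gadd45b, and the higher group Klf10, Atf3, Maff, Klf4 and Jund.

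Egr1, a zinc finger factor induced by growth signals and stretch, measured 1.99, 2.21 and 2.24 on the controls and 0.70, 1.07 and 0.67 with acrylamide. The groups were apart, the difference was -1.33 ± 0.15 (adjusted p = 0.652, limma), and it was -1.52 within slide row 1 and -1.04 within row 2. Egr3, of the same family, measured -1.24, -2.10 and -2.12 on the controls and -2.60, -2.42 and -3.39 with acrylamide, a difference of -0.99 ± 0.35, and both of its spots were lower. The AP-1 genes Fos and Fosb lay on the same side. Fos measured 2.27, 2.81 and 2.49 on the controls and 1.64, 1.70 and 1.92 with acrylamide (-0.77 ± 0.17). Fosb measured -1.94, -2.38 and -2.20 on the controls and -3.25, -2.67 and -3.19 with acrylamide (-0.86 ± 0.20). Other AP-1 genes did not follow them: Jun (-0.08 ± 0.15) and Junb (-0.08 ± 0.14) overlapped, and Jund was 0.26 ± 0.11 on one spot and -0.01 on its other. The second spot of Junb gave 0.41 and overlapped as well.

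Ccn1, encoding a matrix protein that responds to stretch, measured 3.16, 2.94 and 2.77 on the controls and 2.14, 2.25 and 2.14 with acrylamide, a difference of -0.78 ± 0.13. Ier3 measured 2.92, 3.12 and 3.31 on the controls and 2.65, 2.50 and 2.22 with acrylamide (-0.66 ± 0.16). Nr4a1, the orphan receptor NUR77, measured 5.06, 3.87 and 4.73 on the controls and 3.86, 3.79 and 3.53 with acrylamide. The difference of -0.83 ± 0.32 rested on controls 4 and 6, since control 5 was almost level with acrylamide 28, and within slide row 1 it was -0.17. Gadd45b was lower by a smaller amount (-0.24 ± 0.10). Dusp1, a phosphatase gene that shuts off MAP kinases (-0.30 ± 0.24), and Arc (-0.56 ± 0.86) overlapped, and without control 4 Arc was 0.06.

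In the higher group Klf10, a zinc finger gene induced by TGF beta, measured 2.63, 2.79 and 2.77 on the controls and 3.26, 3.37 and 3.37 with acrylamide, a difference of 0.61 ± 0.10. Its second spot was higher as well (1.04). The stress-induced factor Atf3 measured 0.40, -0.30 and 0.35 on the controls and 0.59, 0.94 and 0.57 with acrylamide (0.55 ± 0.22), and without control 5, the lowest, the difference was 0.33. Maff, a small MAF gene (0.53 ± 0.16), and Klf4 (0.41 ± 0.14) were also higher without overlap. Time from death to freezing, to which such genes are known to respond, is not in the sources used here and cannot be told apart from treatment. Without control 4 and acrylamide 29, the arrays with the highest levels of skeletal muscle and squamous keratin genes (below), Egr1 was -1.53, Fos -0.87, Fosb -0.93, Ccn1 -0.71 and Klf10 0.54.

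**Figure D2:**
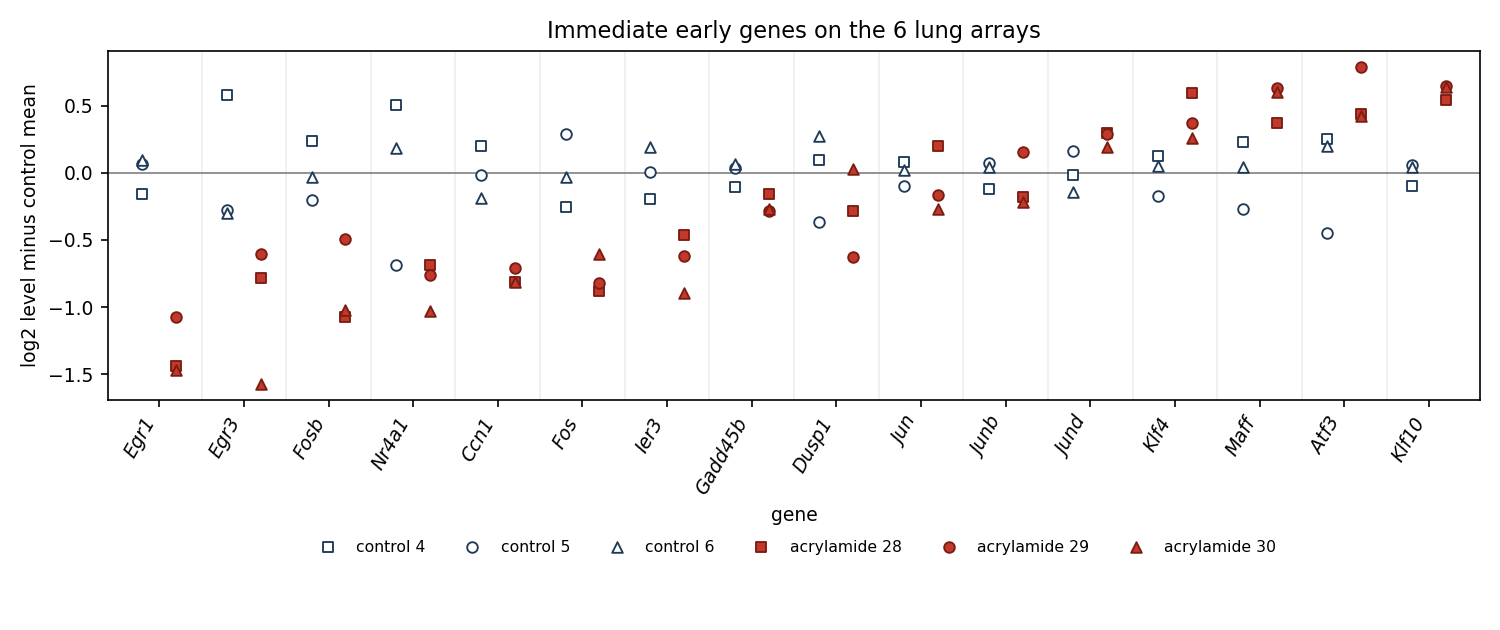
Log2 level minus the control mean (y axis) of 16 immediate early genes (x axis) on each lung array; open symbols are controls and filled symbols acrylamide. The first 8 genes, Egr1 to Gadd45b, have every filled symbol below the open ones and the last 5, Jund to Klf10, have them above.

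The genes with the smallest p-values that were well above background included others outside these lists. Bcl6b, encoding a repressor related to BCL6, measured 2.4, 2.48 and 2.45 on the controls and 3.17, 3.31 and 3.21 with acrylamide, a difference of 0.79 ± 0.09 with the joint lowest adjusted p of 0.652 (limma). The arrays of each group lay close together and the groups far apart. Tex11, known for its part in meiotic recombination, measured -1.39, -1.47 and -1.30 on the controls and -0.56, -0.36 and -0.17 with acrylamide (1.03 ± 0.13), and its second spot gave 0.94. Arid5a, whose protein stabilises inflammatory transcripts, measured 2.04, 1.52 and 1.94 on the controls and 2.64, 2.83 and 2.68 with acrylamide (0.89 ± 0.16).

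Several receptor and secreted factor genes stood among the higher ones. Bdkrb2, the bradykinin B2 receptor, measured -0.56, -0.37 and -0.35 on the controls and 0.24, 0.16 and 0.43 with acrylamide (0.70 ± 0.12). The MAP kinase phosphatase gene Dusp8 differed by 0.77 ± 0.13 and the hormone gene Stc1 by 0.76 ± 0.17, both without overlap. Nts, the neurotensin precursor, measured -2.62, -3.58 and -3.86 on the controls and -2.22, -1.77 and -2.47 with acrylamide (1.2 ± 0.36). Adamts20, a metalloprotease gene, differed by 0.60 ± 0.12 on one spot and by -0.72 on another, so that its direction depended on the spot.

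Among the lower genes, Adra2c, the alpha-2C adrenergic receptor, measured -4.43, -4.16 and -4.10 on the controls and -5.08, -4.92 and -5.15 with acrylamide (-0.82 ± 0.13). Trmt9b, which resembles tRNA methyltransferases, measured -1.79, -1.80 and -1.86 on the controls and -2.36, -2.46 and -2.51 with acrylamide (-0.63 ± 0.09), with all 3 spots on the same side. Sh3kbp1, an endocytic adaptor gene, differed by -0.47 ± 0.08, although 1 of its 4 spots gave 0.08. Map10, a microtubule protein gene, measured -1.12, -1.18 and -1.10 on the controls and -1.59, -1.63 and -1.54 with acrylamide (-0.45 ± 0.09). Fam181b differed by -0.90 ± 0.22. The rest of the lower leaders were dim: Rims2 (-1.32), Sphkap (-1.23), Magea1 (-1.17), Dnajc5g (-0.98, and -0.43 without control 6), Cox7b2 (-0.95, and -0.60 without control 4), Asic1 (-0.93), Mei4 (-0.91), Ccdc177 (-0.66) and Krtap19-2 (-0.61) all had means at most 3.3 log2 units above the background limit. Several of them are known from synapses, the germ line or hair.

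**Figure D3:**
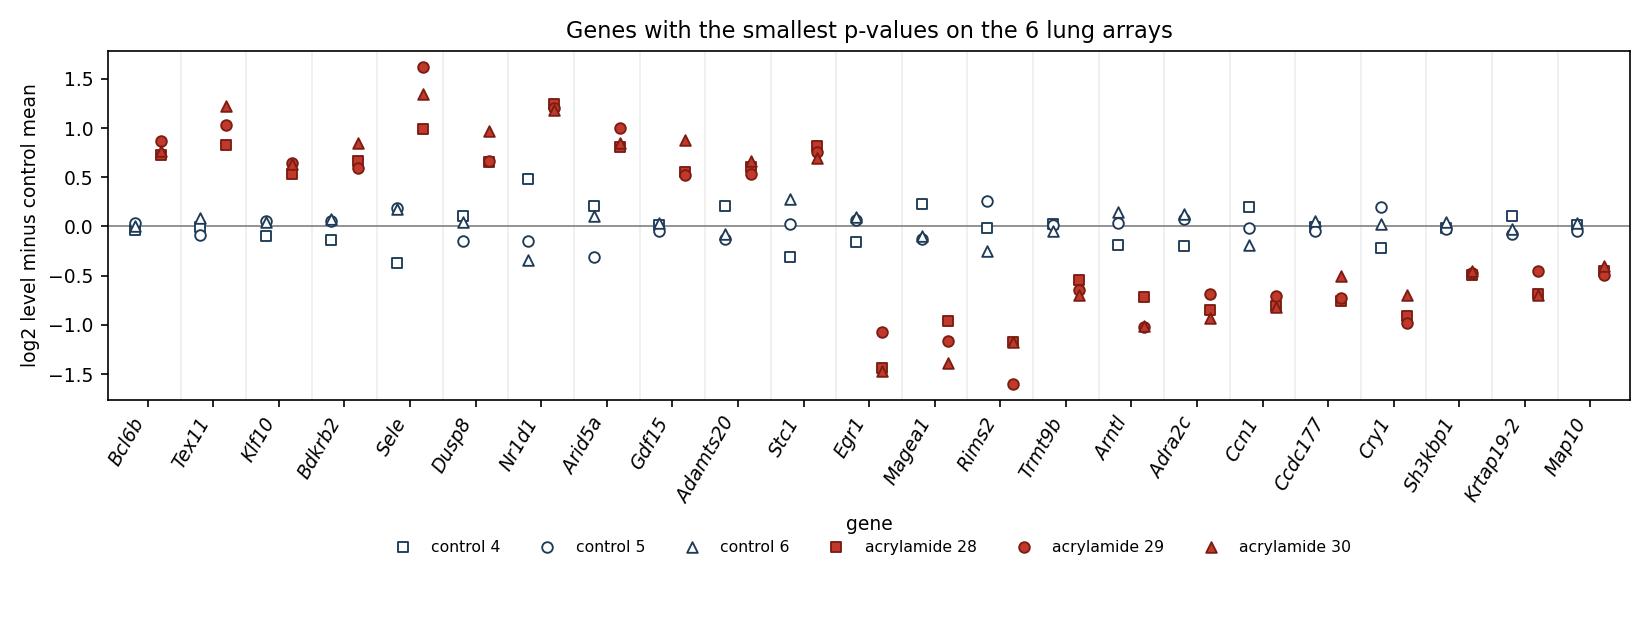
Log2 level minus the control mean (y axis) of 11 higher and 12 lower genes with the smallest unadjusted p (x axis), on each lung array; open symbols are controls, filled symbols acrylamide. Open and filled symbols do not overlap for any of the 23, which the choice of genes required.

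The inducible HSP70 and HSP110 genes spread more within the controls than between the groups. Of 22 heat shock and metallothionein genes measured, 14 were higher and 8 lower, with a median of 0.14. Hspa1a and Hspa1b, the inducible HSP70 genes, have near-identical transcripts, and their promoters share the heat shock element core GAANNTTC (in 7.86% of all promoters, read the same on both strands) inside identical windows, shown in capitals.
Hspa1a (chr17:34972236-34972277, minus strand, 104 bases before the start): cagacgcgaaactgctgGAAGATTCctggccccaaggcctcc
Hspa1b (chr17:34959318-34959359, minus strand, 104 bases before the start): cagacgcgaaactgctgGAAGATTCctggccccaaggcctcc
Their probes may not tell the 2 genes apart, and they moved together over the arrays. Hspa1a measured 3.81, 2.69 and 1.96 on the controls and 3.24, 3.47 and 4.21 with acrylamide, so the controls alone spanned most of the range and the difference was 0.82 ± 0.51. Hspa1b measured 3.94, 2.70 and 1.67 on the controls and 3.22, 3.40 and 4.31 with acrylamide (0.87 ± 0.61). Hsph1, the HSP110 gene, followed the same order of controls (3.72, 3.06 and 1.84) and differed by 0.22 ± 0.50. Dnajb1, the HSP40 partner of HSP70, measured 4.54, 4.49 and 4.04 on the controls and 4.80, 4.80 and 5.28 with acrylamide, a difference of 0.60 ± 0.20 without overlap. Mt2 was likewise higher on all acrylamide arrays (0.51 ± 0.18, and 0.32 without acrylamide 29), and Mt1 was not (0.14 ± 0.15). Without control 6, the lowest control in Hspa1a, Hspa1b and Hsph1, these 3 genes gave 0.39, 0.32 and -0.30, 10 of the 22 were higher and the median was -0.02.

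Glucocorticoid targets, a list that stands for stress hormone action, were higher in 21 of 30 genes with a median of 0.15. Fkbp5, a feedback regulator of the receptor, measured 1.08, 0.95 and 0.69 on the controls and 1.73, 1.12 and 1.45 with acrylamide (0.53 ± 0.19). Zbtb16 measured 1.74, 0.72 and 0.71 on the controls and 2.95, 0.85 and 2.12 with acrylamide, so that 2 acrylamide arrays were high and acrylamide 29 lay below control 4 (0.92 ± 0.58). In this list 3 genes were higher on all acrylamide arrays and 2 lower. Per1 is also a glucocorticoid target, with the values above. Within slide row 2 only 14 of the 30 were higher and the median was -0.13.

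Genes for the handling of acrylamide differed little. Of 30 measured, 18 were higher and 12 lower, with a median of 0.03 and none at an unadjusted p under 0.05. Cyp2e1, whose enzyme makes glycidamide, measured 0.52, 0.11 and 0.19 on the controls and 0.82, 0.94 and -0.11 with acrylamide. Acrylamide 28 and 29 were above the controls and acrylamide 30 below them (0.28 ± 0.30). Ephx1, the microsomal epoxide hydrolase, differed by 0.11 ± 0.10 and Gstp1 by 0.13 ± 0.14, both overlapping. Gstm7, a glutathione transferase gene with close relatives, measured -4.87, -4.18 and -4.49 on the controls and -4.07, -4.12 and -4.14 with acrylamide (0.40 ± 0.18), just outside the highest control, and without control 4 the difference was 0.22. NRF2 targets, which respond to electrophiles, were higher in 9 of 24 genes (median -0.02) with no gene apart in either direction, and Nqo1 (0.24 ± 0.21) and Hmox1 (0.11 ± 0.12) overlapped.

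The p53 targets, which respond to DNA damage, had a median of 0.05, with 15 of 28 higher. Of these 28, 3 genes had all acrylamide arrays above the controls and 2 had them below, against 4.08% and 6.85% of all genes. The 3 higher ones come first. Gdf15, a stress-induced secreted factor, measured -0.65, -0.71 and -0.63 on the controls and -0.12, -0.14 and 0.22 with acrylamide, a difference of 0.65 ± 0.13 (adjusted p = 0.955, limma). Bax, a cell death effector gene, measured 2.38, 2.66 and 2.51 on the controls and 2.77, 2.88 and 2.77 with acrylamide (0.29 ± 0.11). Bbc3, which encodes PUMA, differed by 0.28 ± 0.17, and acrylamide 30 was only just above control 6. Without control 4 the Bbc3 difference was 0.11. The best known targets overlapped: Cdkn1a measured 0.42, 0.09 and -0.14 on the controls and 0.50, 0.37 and 0.62 with acrylamide (0.37 ± 0.17), and Mdm2 (0.08 ± 0.11) and Ccng1 (-0.07 ± 0.15) were within their spread. Sesn1 was lower on all acrylamide arrays (-0.33 ± 0.12). DNA repair genes were higher in 16 of 45 with a median of -0.02, and 2 were lower without overlap.

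Chromatin enzyme genes had medians slightly below 0. DNA methylation genes were higher in 6 of 21 (median -0.07), histone methyltransferases and demethylases in 8 of 36 (-0.07), histone deacetylases and sirtuins in 9 of 22 (-0.13) and histone acetyltransferases in 4 of 13 (-0.06). Genes with all acrylamide arrays below the controls numbered 2, 7, 6 and 3 in these lists, against 6.85% of all genes. Those lower at an unadjusted p under 0.05 (limma) numbered 2, 3, 1 and 1, against 3.13% of all genes. Tet1, a 5-methylcytosine dioxygenase gene, measured -2.44, -2.89 and -2.67 on the controls and -3.16, -3.35 and -3.59 with acrylamide, a difference of -0.70 ± 0.17 (limma adjusted p = 0.959). Its 3 spots gave -0.72 to -0.02, so that 1 of them showed almost no difference. Tet2 (0.06 ± 0.24) and Tet3 (0.12 ± 0.13) overlapped, as did the DNA methyltransferase genes Dnmt1 (-0.09 ± 0.11), Dnmt3a (0.15 ± 0.28) and Dnmt3b (-0.07 ± 0.09).

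Ep300, the acetyltransferase p300, measured -0.41, -0.54 and -0.39 on the controls and -0.84, -0.84 and -0.68 with acrylamide (-0.34 ± 0.10), and its second spot gave -0.56. The class IIa deacetylase gene Hdac7 measured 3.72, 3.83 and 3.90 on the controls and 3.63, 3.51 and 3.38 with acrylamide (-0.31 ± 0.11). Suv39h2, a histone H3 lysine methyltransferase gene, differed by -0.31 ± 0.10 on one spot and by 0.30 on the other. Hdac1 (0.01 ± 0.09), Hdac2 (-0.23 ± 0.14) and the Polycomb enzyme gene Ezh2 (0.01 ± 0.09) overlapped.

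Immune and cell type lists are given with the caution that, in bulk tissue, fewer cells of a type and less RNA per cell cannot be told apart. Interferon response genes were higher in 9 of 50 (median -0.16), and 1 was lower at an unadjusted p under 0.05 (limma), against 3.13% of all genes. All acrylamide arrays lay below the controls for 8 of the 50, against 6.85% of all genes. One of them, Cmpk2, a nucleotide kinase gene induced by interferon, measured 0.14, 0.00 and -0.03 on the controls and -0.40, -0.35 and -0.42 with acrylamide (-0.42 ± 0.09). Genes of interstitial macrophages and monocytes were higher in 19 of 24 (median 0.12). Of these, the complement genes C1qa (0.49 ± 0.20) and C1qc (0.39 ± 0.12), the scavenger receptor gene Cd163 (0.47 ± 0.16) and the Fc receptor gene Fcgr4 (0.59 ± 0.26) were higher on all acrylamide arrays. C1qa measured -0.86, -0.24 and -0.31 on the controls and -0.16, 0.21 and 0.02 with acrylamide. Control 4 was the lowest there, as it was for neutrophil, B cell and T cell lists, whose medians on that array were -0.60, -0.59 and -0.48 relative to the control mean. Without control 4 the macrophage list was higher in 13 of 24 genes (median 0.07), and C1qa and Fcgr4 gave 0.30 and 0.31.

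The chemokine and cytokine list had a median of 0.01, with 22 of 42 higher, and its members with the largest values went both ways. Ccl11 (eotaxin), which draws eosinophils, measured -2.31, -1.74 and -2.05 on the controls and -1.11, -0.58 and -1.58 with acrylamide (0.95 ± 0.28). Ccl2, which draws monocytes, differed by 0.78 ± 0.31 but overlapped. Cxcl5, a chemokine of lung epithelium that draws neutrophils, measured 0.28, 0.93 and -1.05 on the controls and -1.26, -1.0 and -1.94 with acrylamide. The difference was -1.46 ± 0.54, and control 6 lay within the acrylamide arrays. Sele, the E-selectin gene of activated endothelium, measured -6.93, -6.37 and -6.38 on the controls and -5.57, -4.94 and -5.21 with acrylamide, a difference of 1.32 ± 0.23 near the dim end. Selp, the P-selectin gene, measured -2.85, -2.63 and -2.70 on the controls and -2.63, -2.27 and -2.31 with acrylamide (0.33 ± 0.14), with all 3 spots higher. The 31 lung endothelium genes had a median of -0.05.

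Epithelial lists stayed close to 0. All 17 alveolar type 2 genes were lower, with a median of -0.09, but only 1 had its groups apart, and the median of all tested genes was -0.01. With quantile scaling 15 of the 17 were lower. Alveolar type 1 genes had a median of -0.05, club and secretory genes -0.07 and motile cilium genes 0.06. The last 2 lists varied with single arrays: their medians on control 6 lay at -0.50 and -0.63, and on control 4 at 0.28 and 0.39. Proliferation genes were higher in 31 of 40 (median 0.12), with none at an unadjusted p under 0.05, and without control 4 only 15 were higher (median -0.06).

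**Figure D4:**
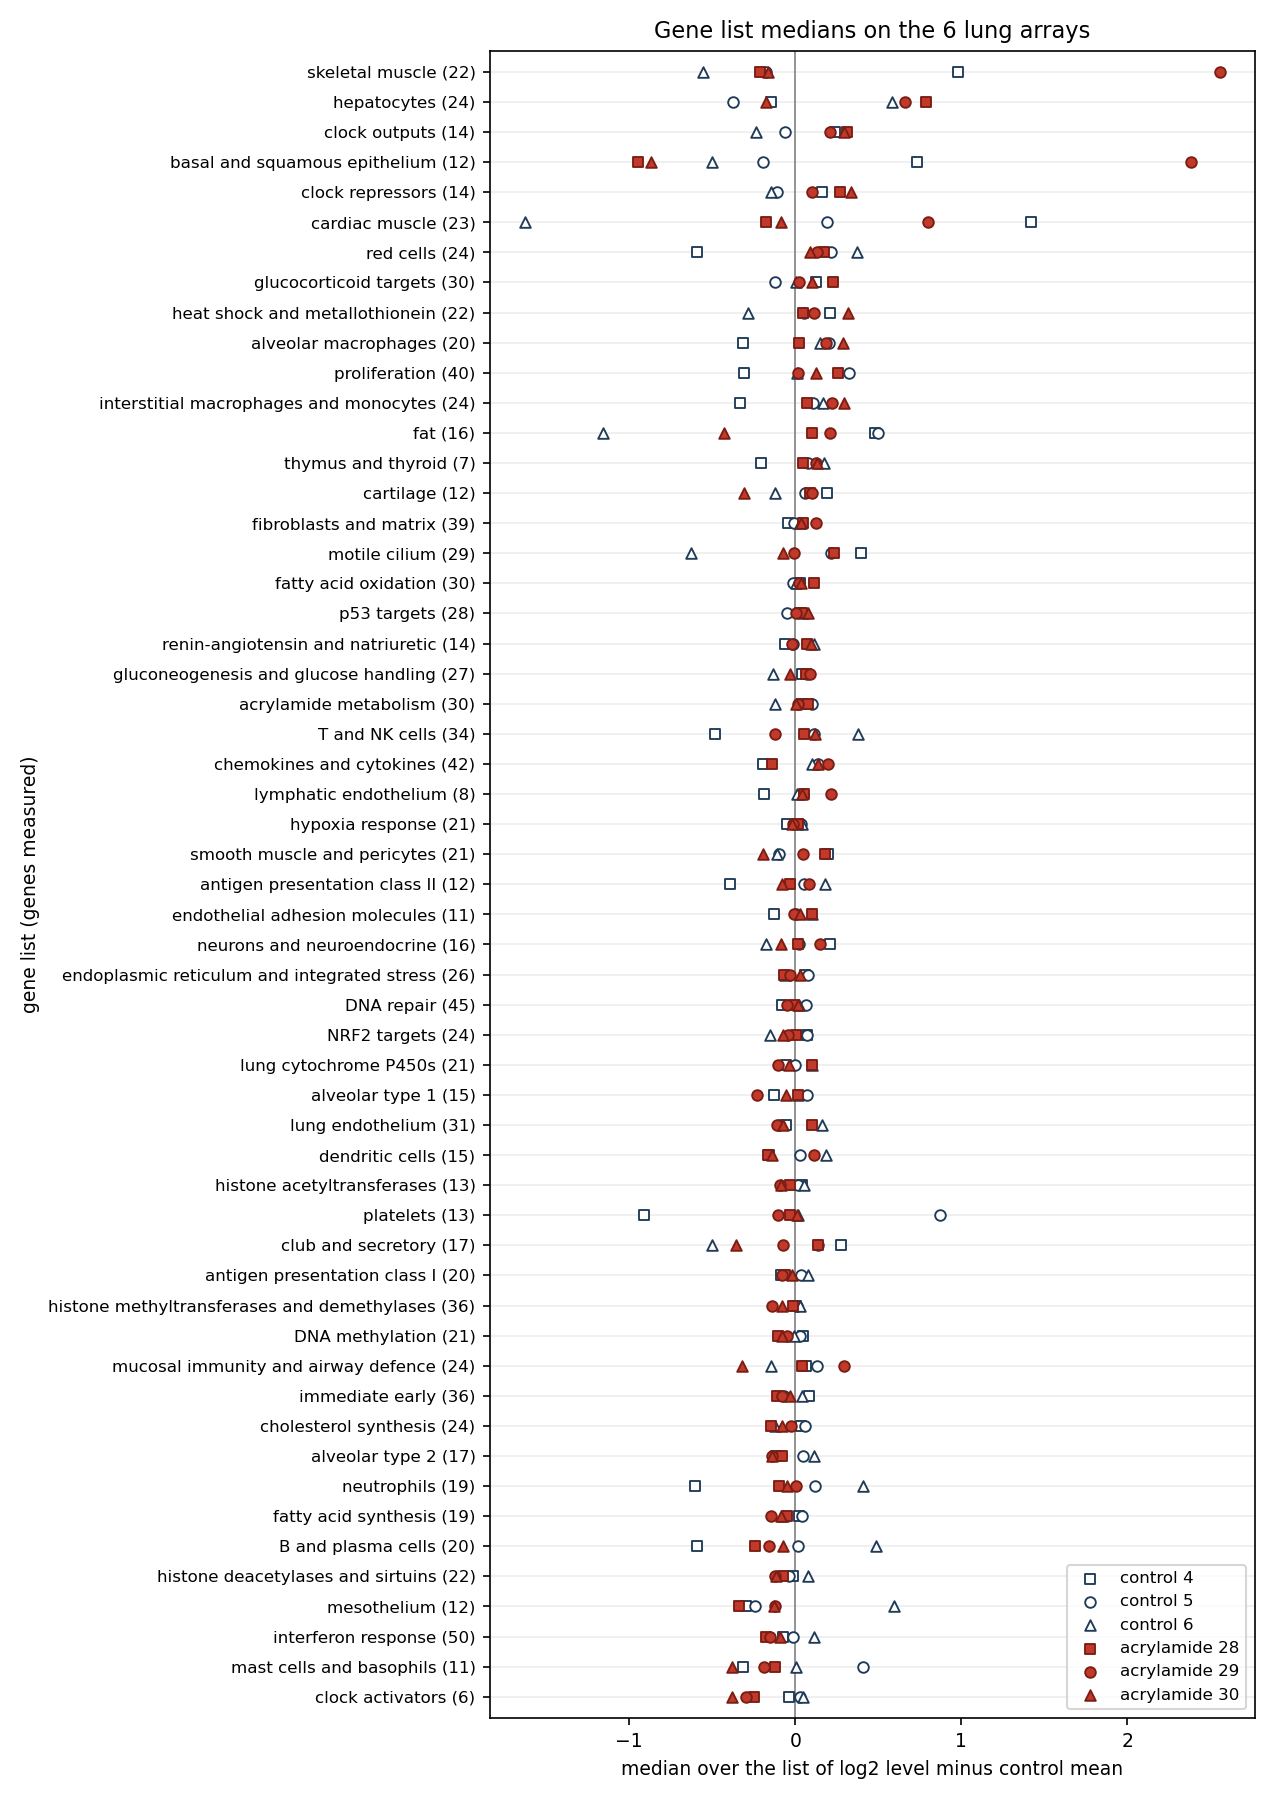
Median over each gene list of the log2 level minus the control mean (x axis) on each lung array, for the 55 lists (y axis, with genes measured), ordered by the difference between groups; open symbols are controls and filled symbols acrylamide. Skeletal muscle, squamous epithelium, cardiac muscle, fat, platelets and hepatocytes separate single arrays rather than groups.

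The widest spread between the lung arrays lay in genes of other tissues. Skeletal muscle genes were higher in 21 of 22, with a median difference of 0.84, but the list median was 2.56 on acrylamide 29, 0.98 on control 4 and between -0.56 and -0.17 on the other 4 arrays. Tnnc2, the fast troponin C gene, measured 1.18, -3.29 and -3.91 on the controls and -3.54, 5.07 and -3.36 with acrylamide. Myh1, a fast myosin gene, measured -1.25, -5.36 and -6.61 on the controls and -5.85, 2.57 and -5.36 with acrylamide. The same 2 arrays held the keratins of squamous epithelium. Krt13, found in lining of the oesophagus and mouth, measured -0.97, -6.50 and -6.90 on the controls and -7.57, 2.53 and -6.81 with acrylamide, and Krt5, a basal cell keratin, measured -0.47, -3.10 and -4.79 on the controls and -4.41, 2.31 and -4.48 with acrylamide. Without acrylamide 29 the skeletal muscle median was -0.25. The number of genes at least 4-fold above the median of the other 5 arrays was 235 on acrylamide 29 and 139 on control 4, against 17 to 50 on the rest.

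Heart genes were also highest on these 2 arrays by their list median. Nppa, the atrial natriuretic peptide gene, measured 3.07, 0.84 and -4.56 on the controls and -1.88, 1.94 and -3.74 with acrylamide, and the cardiac muscle list median ran from -1.63 on control 6 to 1.42 on control 4. Fat genes were lowest on control 6 (-1.16), and platelet genes ranged from -0.91 on control 4 to 0.87 on control 5. Hbb-b1, an adult beta globin gene, measured 2.27 on control 4 and between 3.87 and 4.2 on the other 5 arrays. Their part in the differences above was not tested beyond the values given without control 4 and acrylamide 29.

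Liver-type transcripts formed 2 patterns. Of 24 hepatocyte genes, all were higher with acrylamide (median 0.41), but the 21 outside the Mup family had medians of 0.62 on control 6, 0.71 on acrylamide 28 and 0.60 on acrylamide 29 and of -0.14, -0.40 and -0.20 on controls 4 and 5 and acrylamide 30. Alb, the serum albumin gene, measured 3.10, 3.10 and 4.21 on the controls and 4.22, 4.11 and 3.05 with acrylamide, and Ahsg, the fetuin-A gene, measured 0.97, 0.74 and 2.0 on the controls and 2.24, 2.23 and 1.05 with acrylamide. None of those 21 genes had its groups apart. The Mup genes, a family of related copies that encode the major urinary proteins that bind pheromones, did separate the groups: all 11 measured were higher (0.52 to 1.28, median 1.01) and 9 of them without overlap. Mup1 measured -0.61, -0.38 and -0.42 on the controls and 0.76, 1.24 and 0.13 with acrylamide (1.18 ± 0.28), Mup20, also called darcin, measured -2.31, -2.37 and -2.16 on the controls and -1.14, -0.62 and -1.66 with acrylamide (1.14 ± 0.27). Mup4 (1.04), Mup21 (1.09) and Mup6 (1.28) were also higher on every acrylamide array. Probe sequences of such related copies were not examined, so they are not counted as independent measurements. In liver the differences of these 5 genes ran from -0.18 to 0.44.

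Among the higher genes with the largest differences, 4 owed theirs to 1 or 2 arrays. Tns2, encoding a focal adhesion protein, measured 1.54, 1.42 and 1.39 on the controls and 1.70, 7.66 and 1.61 with acrylamide, and its second spot measured -3.53 on acrylamide 29, close to -3.34 and -3.45 on acrylamide 28 and 30. Hnf4g measured -1.90 on acrylamide 29 and between -5.98 and -5.41 elsewhere. Without acrylamide 29 the differences of Tns2 and Hnf4g were 0.20 and 0.32. Chrnb3, an acetylcholine receptor subunit gene, measured -3.60 on acrylamide 30 and between -7.64 and -6.21 elsewhere, with a difference of 0.79 without it. Hbb-bh2, an embryonic-type globin gene, measured -6.29, -6.77 and -6.61 on the controls and -2.58, -2.86 and -6.27 with acrylamide, so that acrylamide 28 and 29 were high and acrylamide 30 lay just above control 4.

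**Figure D5:**
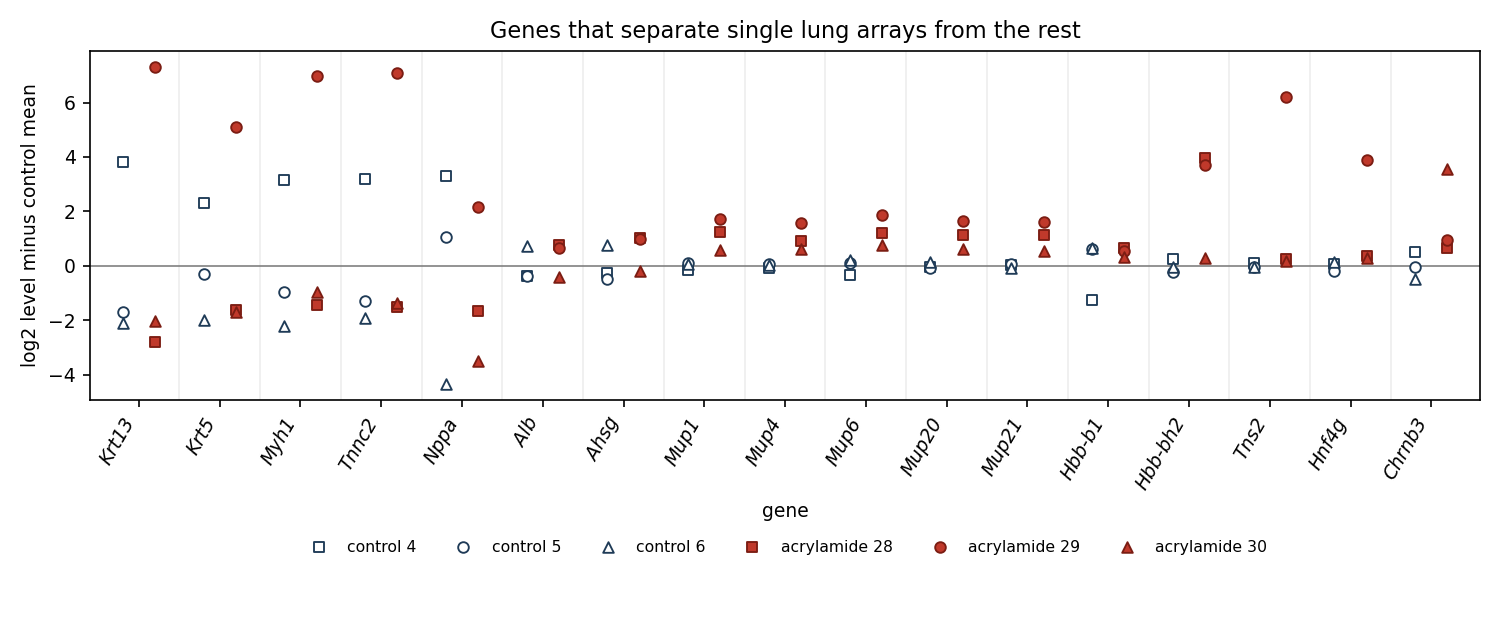
Log2 level minus the control mean (y axis) of 17 genes (x axis) on each lung array; open symbols are controls and filled symbols acrylamide. Keratin and skeletal muscle genes single out acrylamide 29 and control 4, Alb and Ahsg control 6 with acrylamide 28 and 29, and the Mup genes all 3 acrylamide arrays.

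The same contrast in liver was set beside that in lung through the difference of the 2 effects, tested over 23300 genes. The effects and SEs here and in the next paragraph come from 1 fit of all 12 arrays. That fit uses 1 spread per gene for both tissues. These SEs therefore do not measure the spread of liver alone, and lung SEs differ from those above (Arntl 0.25 in place of 0.14). No gene passed (0%), the smallest adjusted p of limma was 0.569, and 1035 genes (4.44%) had an unadjusted p under 0.05. By the numbers that open their titles, lung and liver arrays lay on separate slides. Of the 23300 genes, 80 were higher and 158 lower in both tissues with groups apart. In opposite directions, 55 were higher in lung and lower in liver, and 43 the reverse. In lung alone, groups were apart for 4.08% (higher) and 6.85% (lower) of tested genes. How many joint genes would arise without an effect was not tested. Among the clock genes, Arntl differed by -0.53 ± 0.25 in liver, Cry1 by -0.82 ± 0.22 and Nr1d1 by 0.75 ± 0.36. Nr1d2 differed by 0.90 ± 0.32, Dbp by 2.34 ± 0.38 and Nfil3 by -1.07 ± 0.15. All of these had the sign they had in lung. Nr1d1 measured -0.69, -0.70 and -2.13 on the liver controls and -0.40, -0.61 and -0.26 with acrylamide. Its liver difference thus leaned on 1 low control. Arntl overlapped in liver, with 0.42, 0.16 and 0.67 on the controls and 0.07, 0.31 and -0.71 with acrylamide. The -0.71 was acrylamide 30, the liver array with the fewest spots above background (55.6%). Npas2 was -0.13 ± 0.30 in liver, but there acrylamide 30, at -4.48, lay below its background limit. Acrylamide 27 and 29 measured -5.495 and -5.66, beside -5.27, -4.71 and -5.26 on the liver controls. Hlf (0.23 ± 0.26) and Cry2 (-0.10 ± 0.17) had the opposite sign to lung. Per2 was 0.06 ± 0.30 in liver. Of the immediate early genes, Egr1 differed by -3.35 ± 0.77 in liver. It measured 3.93, 1.17 and 3.21 on the liver controls and 1.12, -1.35 and -1.52 with acrylamide. The lowest control and the highest acrylamide array were thus almost level. Klf10 differed by 0.67 ± 0.46, but its groups overlapped there. Fos (-0.36 ± 0.36), Fosb (-0.10 ± 0.21), Ccn1 (0.16 ± 0.20) and Ier3 (0.49 ± 0.26) lay nearer to 0 or above it in liver.

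The genes with the smallest p for lung minus liver were mostly ones that differed in liver. Ppard, a fatty acid receptor gene, differed by -0.06 ± 0.17 in lung and -1.66 ± 0.17 in liver, and Dnmt3b by -0.07 ± 0.13 and -0.98 ± 0.13. Crispld2 (0.28 in lung and -1.12 in liver), Emp1 (0.19 and -0.96) and the lysyl oxidase gene Loxl1 (0.10 and -1.27) had the same form, and Bbc3 had 0.28 and -1.22. In the other direction Hdac2 differed by -0.23 ± 0.15 in lung and 0.97 ± 0.15 in liver and Oas1d, of the interferon-induced synthetase family, by -0.31 and 0.92. Bahcc1 (-0.32 and 0.55), Atl1 (-0.18 and 0.82), Chst2 (0.11 and 0.85) and Upp2 (-0.24 and 0.73) followed. The adjusted p of these 12 genes lay between 0.569 and 0.827.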

How the data were processed

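RNA of 6 lung and 6 liver samples was labelled with Cy3 and hybridised to Agilent arrays, 1 array per sample. The deposited files hold each spot's intensity as Agilent Feature Extraction 10.7 wrote it, per the submitters' processing notes; whether background was subtracted is not given in the sources used here. Spots were named through RefSeq by Entrez identifier (38054 spots) or accession (715), or by the name in the file (2242), and 20646 stayed unnamed. Intensities were divided by each array's 75th percentile over spots that are not controls and taken to log2. A spot counted as above background past the 95th percentile of the negative controls of its array, and genes above it on at least 3 of the 6 lung arrays were tested, on 1 spot per gene (the one with the highest mean). Groups were compared with limma 3.58.1 in R 4.3.3 (lmFit, eBayes) over the 6 lung arrays, with Benjamini-Hochberg adjustment over all tested genes; the fit was tested on simulated data. Lung groups share no title number.

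Genes were named by these rules: the 12 higher and 12 lower genes with the smallest p, and those with the largest difference, among genes above background on all 6 arrays, at least 4-fold over the background limit, with groups apart and an informative symbol; the acrylamide, p53, DNA methylation and deacetylase genes of a set list; list members with the largest differences; and the 6 genes in each direction with the smallest p for lung minus liver. Lists and members were chosen with earlier results of these data known. A few genes that these rules take are not reported here.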

Additional observations from a re-analysis of the deposited data

Results flagged for a closer look

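Bbc3 and Map10 had lung and liver groups that were apart in opposite directions. Adamts20 did so only by the values of 1 of its spots, part of them below background. For Bbc3 the lung effect exceeded the liver effect by 1.5 on the log2 scale (0.28 in lung and -1.22 in liver, limma adjusted p = 0.756). For Map10 the lung effect minus the liver effect was -1.09 (-0.45 and 0.64, limma adjusted p = 0.851). For Adamts20 it was -1.71 (-0.72 and 0.99, limma adjusted p = 0.994), on the spot used for the fit of both tissues, while the spot used for lung alone gave 0.60. The Adamts20 spot was above background on 10 of the 12 arrays, with liver acrylamide 30 below its limit, so the liver groups are not shown to be apart for that gene. None of the 3 differences passed the adjusted threshold. Groups of 3 arrays are too small for a test of single outlying arrays.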

How the results depend on the processing

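Under every alternative run, 0 lung genes passed the adjusted threshold, with 479 to 1559 at an unadjusted p under 0.05. The count of genes at an unadjusted p under 0.05 and at least 1.5-fold, 356, became 217 in 1 fit of all 12 arrays and 619 without control 4 and acrylamide 29 together, and it ran from 389 to 593 when single arrays were left out, the highest being without control 5. The deposited series values differ from the array values by 1 factor per array and gave the same results. For lung minus liver, leaving out single arrays gave 0 to 136 genes past the threshold: 136 without liver acrylamide 30, 8 without liver acrylamide 27, and 1 each without liver control 1 (Ppard) and without lung acrylamide 30. With the title number as a replicate block, which pairs lung and liver samples of the same number, the count stayed at 0; the correlation within numbers was -0.183, and no paired analysis of the lung groups was possible because they share no number. Of 120 named lung genes, 103 kept their sign without each single array. Those that changed it in some run had these ranges: Ccng1 (-0.17 to 0.040), Ciart (-0.066 to 0.39), Ezh2 (-0.037 to 0.043), Hdac1 (-0.018 to 0.031), Krt13 (-2.41 to 2.75), Krt5 (-1.66 to 1.75), Myh1 (-1.20 to 3.10), Tnnc2 (-1.45 to 2.99), Clock (-0.062 to 0.012), Hsph1 (-0.30 to 0.64), Jun (-0.22 to 0.017), Nppa (-3.18 to 0.63), Arc (-1.46 to 0.057), Hbb-b1 (-0.12 to 0.84), Dnmt3a (-0.17 to 0.34), Mt1 (-0.0018 to 0.25) and Tet2 (-0.17 to 0.27). Other sign changes were with quantile scaling Ezh2 at -0.0022 and Hdac1 at -0.0047; with median centring Ezh2 at -0.030 and Hdac1 at -0.035; with the mean of a gene’s spots Adamts20 at -0.062, Dnmt3a at -0.016, Dnmt3b at 0.072, Hdac1 at -0.012 and Junb at 0.16. Others were with array weights Ezh2 at -0.012 and Hdac1 at -0.015; with the slide row as a block Ezh2 at -0.0053 and Hdac1 at -0.014; with values within slide row 1 Dnmt3a at -0.12, Dusp1 at 0.23, Ezh2 at -0.0020, Gstp1 at -0.11, Hbb-b1 at -0.11, Jun at 0.058, Krt13 at -0.70, Krt5 at -1.35, Mt1 at -0.12, Myh1 at -0.24, Tet3 at -0.082 and Tnnc2 at -0.16. Others were with values within slide row 2 Ciart at -0.51, Clock at 0.0078, Ezh2 at -0.0085, Hdac1 at -0.031, Junb at 0.19, Nppa at 2.68, Per1 at -0.19 and Zbtb16 at -0.37; with control 4 and acrylamide 29 both left out (chosen after seeing the data) Alb at -0.024, Arc at 0.044, Ezh2 at -0.019, Hbb-b1 at -0.14, Hmox1 at -0.00062, Jun at 0.0013, Krt13 at -0.50 and Krt5 at -0.50. The cause of these changes was not tested; most of the genes had differences near 0 or varied with a single array. Values within a slide row rest on 3 arrays and carry no test. The 3 arrays per group limit the precision, and the median standard error of a difference was 0.15.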
